A study of Saccharomyces cerevisiae with 18 samples.

Results

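Esperamicin A1 and neocarzinostatin are enediynes, natural products that cut DNA, and the transcript levels of Saccharomyces cerevisiae cells exposed to esperamicin A1 were compared directly with those of cells exposed to neocarzinostatin. The arrays were chosen by the compound named in the sample labels, which gave 6 of the 18 arrays of the series, 3 for esperamicin A1 and 3 for neocarzinostatin, each from a culture called a biological replicate. All 6 cultures were strain DBY747, a laboratory strain of mating type a, grown to mid-log phase in rich medium (YPD). Esperamicin A1 was given at 3 nM and neocarzinostatin, as the chromophore freed of its protein, at 4 nM, each for 15 min at ambient temperature, and both doses were set to kill 20 to 25% of the cells. The compounds were thus matched by lethality and time and not by concentration, so that an effect of the dose in nM and an effect of the compound cannot be told apart. Each value is an intensity made by the authors with RMA (robust multi-array average) on Affymetrix YG-S98 arrays, and 5656 genes were compared, each through its brightest probe set. The remaining 12 arrays held calicheamicin, γ-radiation, methanol vehicle and mock irradiation, 3 each, and served only for the estimate of the spread and as background. The methanol vehicle, which is the control of the enediynes, is given for reference beside the 2 compounds.

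Enediynes bind in the minor groove of DNA, are activated there by thiols such as glutathione, and form a diradical that takes hydrogen atoms from the deoxyribose of one or both strands. Esperamicin A1 is related to calicheamicin, with sugars and a trisulfide trigger, and neocarzinostatin is made in nature as a chromoprotein, of which only the extracted enediyne chromophore was used here. Esperamicin A1 is known for a higher proportion of single-strand to double-strand lesions than neocarzinostatin, and the comparison addresses whether 2 members of 1 chemical class that differ in this proportion differ in the transcript response. In yeast, broken or stalled DNA activates the kinases Mec1, Rad53 and Dun1, which relieve repression of the ribonucleotide reductase genes, and cells under damage also draw on general stress factors and on inhibitors of the cyclin-dependent kinase.

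The arrays of the 2 compounds separated in 2 of 3 measures of RNA integrity. The log2 difference between the 5' and the 3' control probe set of actin was -2.34, -1.86 and -1.53 on the esperamicin A1 arrays, against -0.83, -0.95 and -0.94 on the neocarzinostatin arrays, so that the groups did not overlap (exact permutation test, two-sided, p = 0.1, the smallest p that 3 against 3 arrays allow). Methanol vehicle replicate 1 was lower still at -3.59, while methanol vehicle replicates 2 and 3 were at -0.97 and -0.77. The same difference for SPT15 was -3.67, -3.59 and -4.19 on the esperamicin A1 arrays, against -3.57, -2.45 and -2.45 on the neocarzinostatin arrays, also without overlap (exact permutation test, two-sided, p = 0.1). For SRB4 it was -0.99, -1.51 and -1.08 with esperamicin A1, against -0.79, -1.12 and -0.81 with neocarzinostatin, and the groups overlapped (exact permutation test, two-sided, p = 0.3). Arrays of esperamicin A1 correlated with each other at 0.982 to 0.985 and with those of neocarzinostatin at 0.977 to 0.988, across genes, and methanol vehicle arrays with each other at 0.957 to 0.991. The genes specific to mating type a had a mean log2 intensity of 6.23 to 6.64 over the 6 arrays, the genes specific to mating type α one of 4.16 to 4.54, and all genes one of 4.91 to 4.98. The part that RNA integrity has in the differences below was not tested. A fit that includes the actin difference as a covariate was made, and its values are given beside many of the genes it moved. That fit keeps the groups, so its slope comes from the spread of the actin difference within groups. This spread was by far widest among the methanol vehicle arrays, so the covariate values rest largely on methanol vehicle replicate 1. They are not a separate measure of an effect of RNA integrity.

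**Figure D1:**
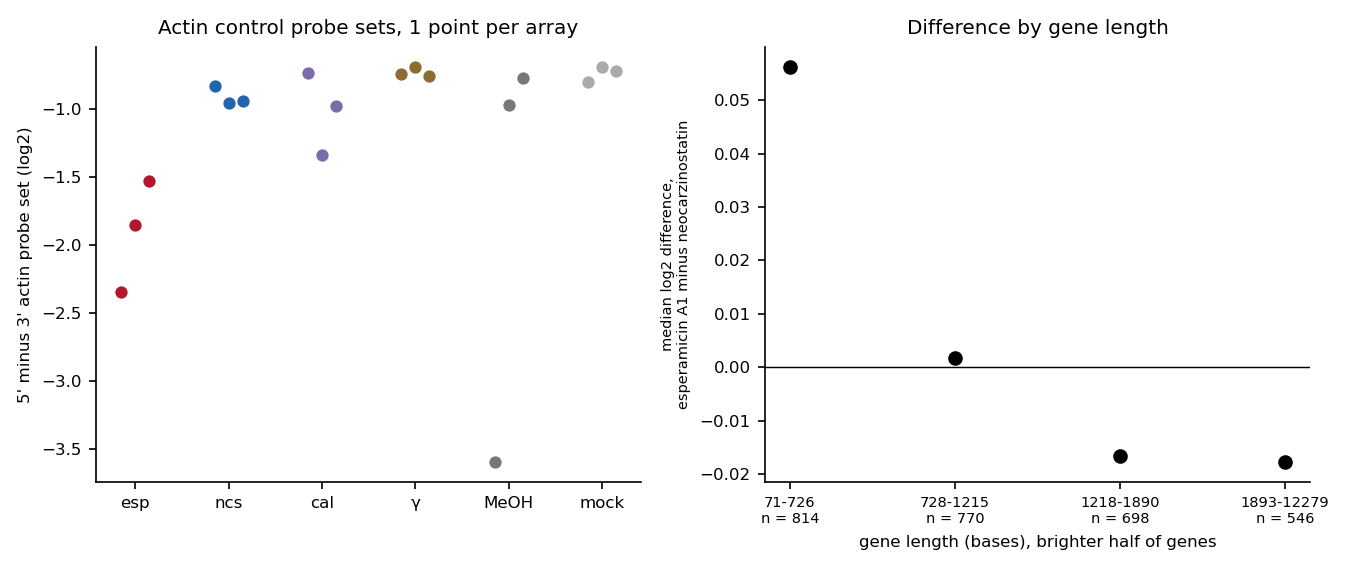
Left, log2 difference between the 5' and 3' actin probe sets (y axis) on each of the 18 arrays, 1 point per array, for esperamicin A1 (esp), neocarzinostatin (ncs), calicheamicin (cal), γ-radiation (γ), methanol vehicle (MeOH) and mock irradiation (mock); right, median log2 difference of esperamicin A1 minus neocarzinostatin (y axis) in 4 classes of gene length in bases (x axis) among the brighter genes, with the number of genes. The 3 esperamicin A1 arrays lie between -2.34 and -1.53, below all 3 neocarzinostatin arrays, and the median difference is 0.06 among the shortest genes and -0.02 among the longest.

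No gene passed the call between esperamicin A1 and neocarzinostatin with limma on all 18 arrays. With a call set at a 1.5-fold difference together with a p of at most 0.10 after Benjamini-Hochberg adjustment, 0 of 5656 genes (0%) were called by limma in the model of all 18 arrays, and the smallest adjusted p was 0.569. An unadjusted p under 0.05 was found for 414 genes (7.32%), of which 188 (3.32%) were higher and 226 (4%) were lower with esperamicin A1, where 282.8 would be counted if none differed. The 3 esperamicin A1 arrays lay wholly above the 3 neocarzinostatin arrays for 413 genes (7.3%) and wholly below them for 436 genes (7.71%). A difference of 1.5-fold or more was measured for 61 genes (1.08%) in the higher and for 90 genes (1.59%) in the lower direction. The 95% interval of the difference lay within a 2-fold change in either direction for 5191 genes (91.8%), and the median standard error of a difference was 0.20 on the log2 scale, so that for these genes a difference of more than 2-fold lay outside the interval. With limma on the 6 arrays alone, 3 genes (0.053%) were called, YOR302W, COS10 and SPA2, and with the local pooled error test, the test named in the study's methods, 6 genes (0.106%) were called, YOR302W, COS10, MPT5, RPL37B, SRL1 and YHB1. All of these were lower with esperamicin A1.

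**Figure D2:**
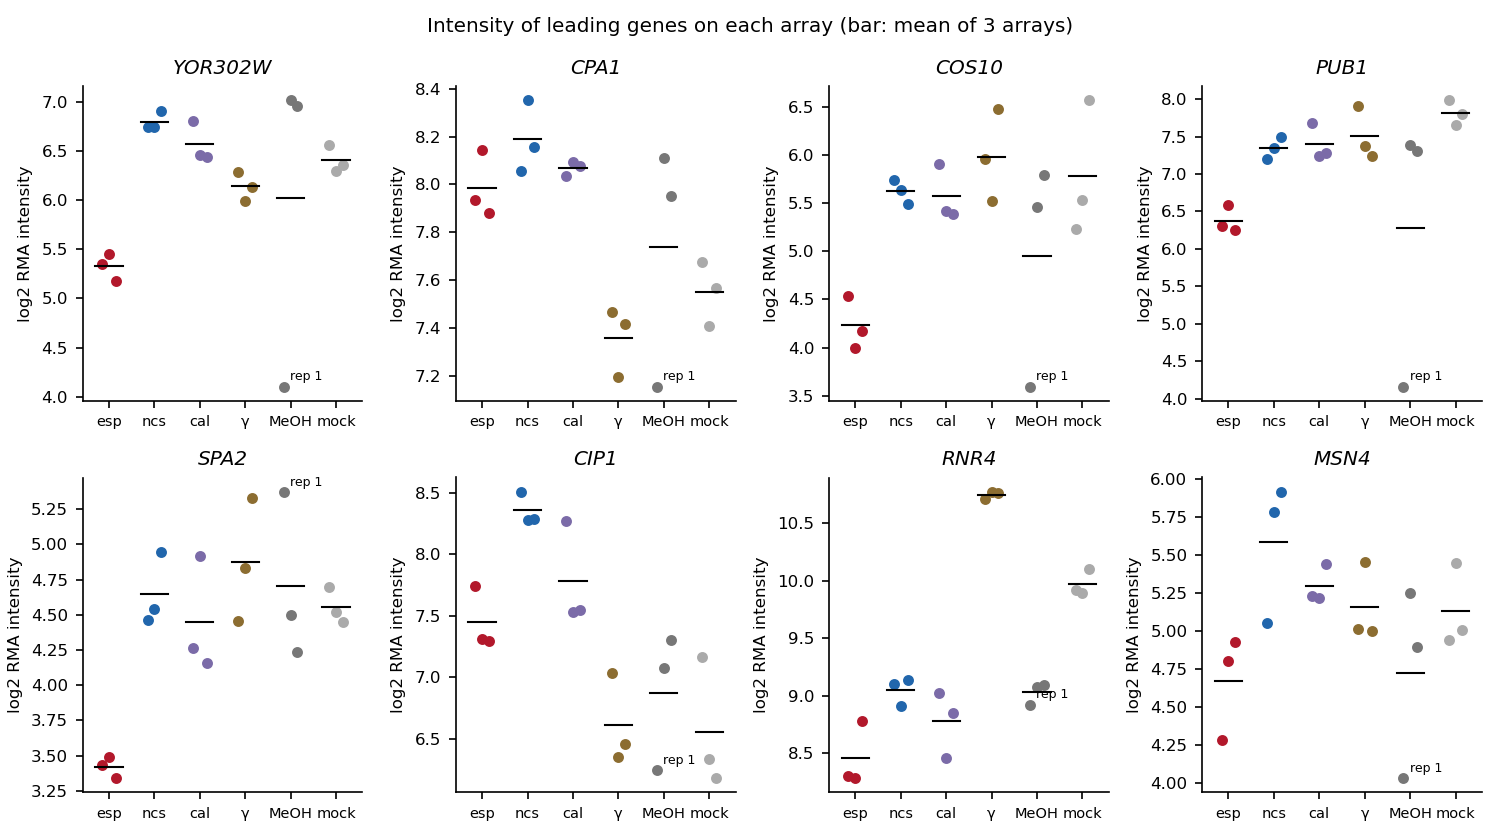
log2 RMA intensity (y axis) of 8 genes on each of the 18 arrays, 1 point per array and a bar at the mean of 3 arrays, for esperamicin A1 (esp), neocarzinostatin (ncs), calicheamicin (cal), γ-radiation (γ), methanol vehicle (MeOH, replicate 1 marked) and mock irradiation (mock). YOR302W, COS10 and PUB1 are low on the 3 esperamicin A1 arrays and on methanol vehicle replicate 1, and SPA2 is low on the 3 esperamicin A1 arrays. CIP1 is highest on the 3 neocarzinostatin arrays, with calicheamicin replicate 1 just below them.

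The largest difference was in YOR302W, the reading frame of the arginine attenuator peptide, which lies in the leader of the CPA1 messenger RNA upstream of the coding sequence. YOR302W had intensities of 40.9, 43.8 and 36.3 with esperamicin A1, against 108, 107 and 119.7 with neocarzinostatin and 17.2, 129 and 124 with methanol vehicle. The esperamicin A1 arrays were all below the neocarzinostatin arrays, and only methanol vehicle replicate 1 was lower among the 18 arrays. The mean was 40.3 ± 3.82 with esperamicin A1 and 111 ± 7.18 with neocarzinostatin (SD, n = 3 each), a log2 difference of -1.47 (SE 0.48, 95% interval -2.48 to -0.45, limma adjusted p = 0.578). The adjusted p was 0.0116 on the 6 arrays alone and 4.68e-05 by limma when methanol vehicle replicate 1 was left out of the 18 arrays, and with the actin covariate the log2 difference was -0.52 (limma adjusted p = 0.65). CPA1 itself, the small subunit of the carbamoyl phosphate synthetase of arginine synthesis, had 245, 283 and 236 with esperamicin A1, against 266, 327 and 286 with neocarzinostatin, with overlap between the groups and a log2 difference of -0.20. The 2 probe sets thus gave unlike differences although YOR302W lies in the leader of the CPA1 messenger RNA, and the cause was not tested. For any gene here, cultures were measured in bulk, so fewer cells with a transcript and less of it per cell cannot be told apart.

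COS10, a member of a family of similar subtelomeric genes, had 23.2, 15.98 and 17.97 with esperamicin A1, against 53.5, 49.7 and 45.05 with neocarzinostatin and 12.1, 43.9 and 55.3 with methanol vehicle. As for YOR302W, the 3 esperamicin A1 arrays and methanol vehicle replicate 1 were the 4 lowest of the 18. The log2 difference was -1.39 (SE 0.43, limma adjusted p = 0.578), and it was -0.72 with the actin covariate. The 3 other probe sets assigned to COS10 gave -0.54, -1.07 and 0.19, and the values of COS10 are uncertain as far as related family members share its probes.

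SPA2, a scaffold of the polarisome that directs growth to the bud tip, had 10.8, 11.2 and 10.1 with esperamicin A1, against 22.004, 23.3 and 30.7 with neocarzinostatin and 41.4, 22.6 and 18.8 with methanol vehicle. The esperamicin A1 arrays were the 3 lowest of all 18, and methanol vehicle replicate 1 was the highest. The log2 difference was -1.23 (SE 0.27, limma adjusted p = 0.569), and with the actin covariate it was -1.62 at a limma adjusted p of 0.0139, the 1 call of that fit. These are dim values, and the 6 other probe sets of SPA2 were dimmer still and gave log2 differences between -0.72 and 0.15.

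The 12 largest differences in the lower direction among the brighter genes also held MPT5 and ERG12. MPT5, an RNA-binding protein of the Puf family, had 71.3, 64.5 and 121 with esperamicin A1, against 155, 174 and 173 with neocarzinostatin and 76.6, 193 and 171 with methanol vehicle. All esperamicin A1 arrays were below all neocarzinostatin arrays, and the log2 difference was -1.02 (SE 0.31, limma adjusted p = 0.569), or -0.57 with the actin covariate. ERG12, the mevalonate kinase of sterol synthesis, had 31.3, 27.6 and 25.3 with esperamicin A1 and 55.8, 58.3 and 52.4 with neocarzinostatin, without overlap. Its log2 difference was -0.99, or -0.33 with the actin covariate (limma adjusted p = 0.80). The 3 other probe sets of ERG12 gave -1.37, -0.46 and 0.14. The flocculin gene FLO10 (-1.11), SBH1 of the Sec61 translocation channel (-0.96), the tyrosine phosphatase PTP2 of the osmosensing pathway (-0.95), BAG7, a GTPase-activating protein for Rho1 (-0.89), the zinc finger gene RGM1 (-0.85) and WBP1 of the oligosaccharyl transferase (-0.84) had the log2 differences given and likewise no overlap between the groups. For SBH1, esperamicin A1 replicate 2 at 27.9 was well below replicates 1 and 3 at 81.5 and 84.6, against 109, 96.2 and 135 with neocarzinostatin, and the log2 difference was -0.44 without esperamicin A1 replicate 2. For FLO10, 1 other probe set also gave -1.11 while the 5 others lay between -0.32 and 0.35, and with the actin covariate the log2 difference was -0.15 (limma adjusted p = 0.935). For PTP2 the 4 other probe sets gave -0.59 to -0.14, and the one as bright as that used gave -0.23. With the actin covariate the log2 differences were -0.97 for SBH1, -0.53 for PTP2, -0.50 for BAG7, -0.43 for RGM1 and -0.50 for WBP1.

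**Figure D3:**
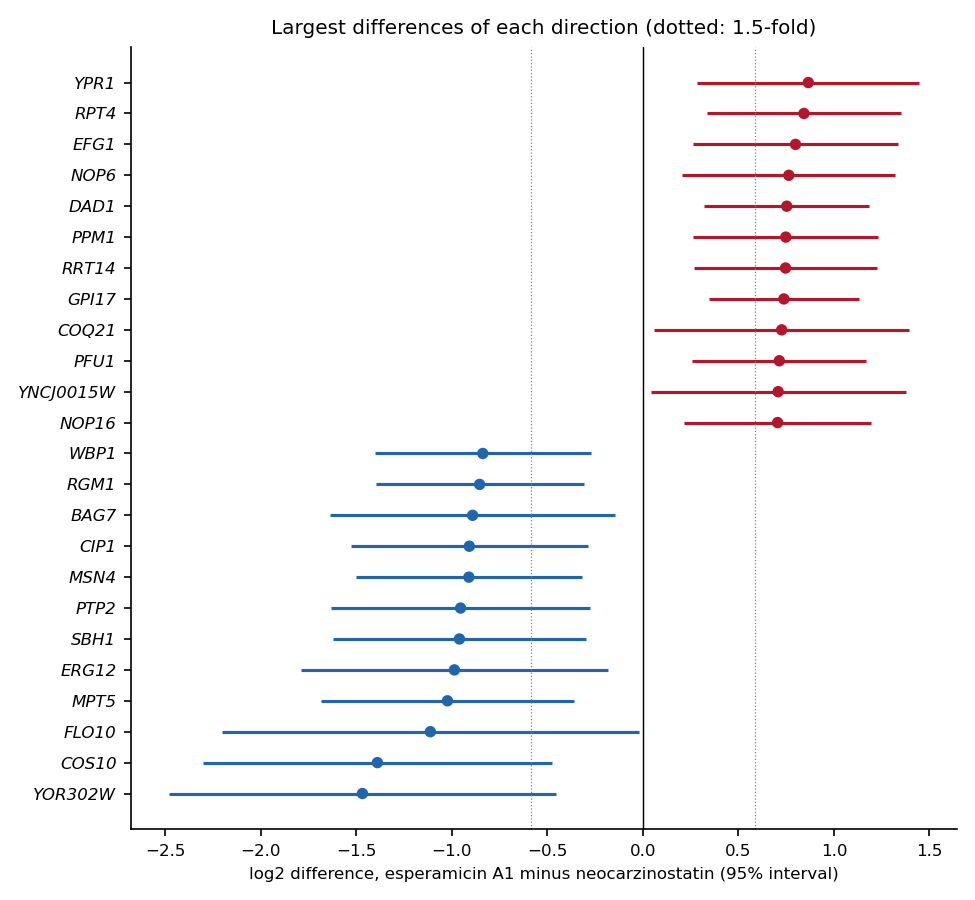
log2 difference of esperamicin A1 minus neocarzinostatin (x axis; point, limma estimate; line, 95% interval) for the 12 largest differences of each direction among genes at or above the median intensity, with an unadjusted p under 0.05 and no overlap of arrays; dotted lines mark 1.5-fold. The lower differences extend to -1.47 and the higher ones to 0.87, and none passed the adjusted threshold.

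Some of the largest differences in the lower direction were shared with methanol vehicle replicate 1, the array with the lowest actin value. For 5 of the 12 largest in the lower direction, YOR302W, COS10, ERG12, RGM1 and WBP1, that array and the 3 esperamicin A1 arrays were the 4 lowest of the 18, which held for 53 of all 5656 genes (0.937%) and for 53 of the 436 genes whose esperamicin A1 arrays all lay below the neocarzinostatin arrays (12.2%). Methanol vehicle replicate 1 lay below every neocarzinostatin array for 11 of these 12 genes and for 38.8% of all genes. It lay above every neocarzinostatin array for 10 of the 12 largest in the higher direction and for 31.3% of all genes. The 12 of each direction were chosen for neocarzinostatin arrays wholly above or below those of esperamicin A1, which by itself raises such counts. All genes are therefore not an even baseline for them, and nothing is concluded from the excess. The same 4 arrays were the highest of the 18 for 42 of all genes (0.743%), which is 10.2% of the 413 genes whose esperamicin A1 arrays all lay above the neocarzinostatin arrays. They were the highest for 0 of the 12 largest in the higher direction. Gene length moved with the difference as well: among the 2828 genes at or above the median intensity, the median log2 difference was 0.06 in the shortest of 4 length classes (71 to 726 bases) and -0.02 in the longest (1893 to 12279 bases), and 42.1% and 53.5% of these genes had a difference below 0, where the share over all genes was 49.2%. The 86 brighter genes with a p under 0.05 and no overlap in the higher direction had a median length of 910 bases, the 65 in the lower direction one of 1473 bases, and all brighter genes one of 1098 bases.

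Among the genes of cell cycle arrest, CIP1 stood highest in the cells exposed to neocarzinostatin. CIP1, an inhibitor of the G1 forms of the cyclin-dependent kinase, had 214, 159 and 157 with esperamicin A1, against 364, 311 and 313 with neocarzinostatin and 75.9, 134 and 158 with methanol vehicle. The neocarzinostatin arrays were the 3 highest of all 18, but calicheamicin replicate 1 lay just below them at 309. Calicheamicin replicates 2 and 3 had 185 and 187, so every calicheamicin array was also above every vehicle array. The esperamicin A1 arrays lay close to or above the highest vehicle array. The log2 difference was -0.91 (SE 0.29, 95% interval -1.53 to -0.29, limma adjusted p = 0.578), between -1.06 and -0.60 over the alternatives. Over the 6 cyclin-dependent kinase inhibitors and related genes the median difference was -0.18, beside 0.01 over all genes. CIP1 was the 1 member of the 6 with an unadjusted p under 0.05 by limma, beside 7.32% of all genes. The median of the 6 was -0.40 without neocarzinostatin replicate 1 and 0.01 with the actin covariate. SIC1, the inhibitor that holds B-type cyclins in G1, had 20.9, 27.5 and 15.8 with esperamicin A1 and 22.1, 29.6 and 27.8 with neocarzinostatin, and the groups overlapped.

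MSN2 and MSN4 encode the zinc finger factors that activate genes with stress response elements. MSN4 had 19.5, 27.9 and 30.4 with esperamicin A1, against 33.2, 55.1 and 60.3 with neocarzinostatin and 16.4, 38.03 and 29.8 with methanol vehicle, and its log2 difference was -0.91 (SE 0.28, limma adjusted p = 0.578). MSN2 had 40.2, 49.8 and 38.1 with esperamicin A1, against 52.7, 71.7 and 74.1 with neocarzinostatin and 21.2, 56.2 and 40.7 with methanol vehicle, and its log2 difference was -0.63 (SE 0.26, limma adjusted p = 0.626). For both factors all esperamicin A1 arrays lay below all neocarzinostatin arrays, and with the actin covariate the log2 differences were -0.53 for MSN4 and -0.24 for MSN2. Among 30 general stress genes, which include both factors and many of their targets, 0 were called. An unadjusted p under 0.05 was found for 2 of them, both in the lower direction and both these factors, beside 7.32% of all genes. A difference below 0 was found for 22, beside 49.2% of all genes, and the median over the list was -0.15. That median lay between -0.21 and 0.02 over the alternatives and was above 0 only without neocarzinostatin replicate 1. The 24 heat shock chaperones had a median of -0.13, or -0.013 without esperamicin A1 replicate 3, with no member under an unadjusted p of 0.05, and the abundant chaperone SSA1 had 3446, 3762 and 3979.9 with esperamicin A1 and 5024, 5820.0 and 3196 with neocarzinostatin.

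**Figure D4:**
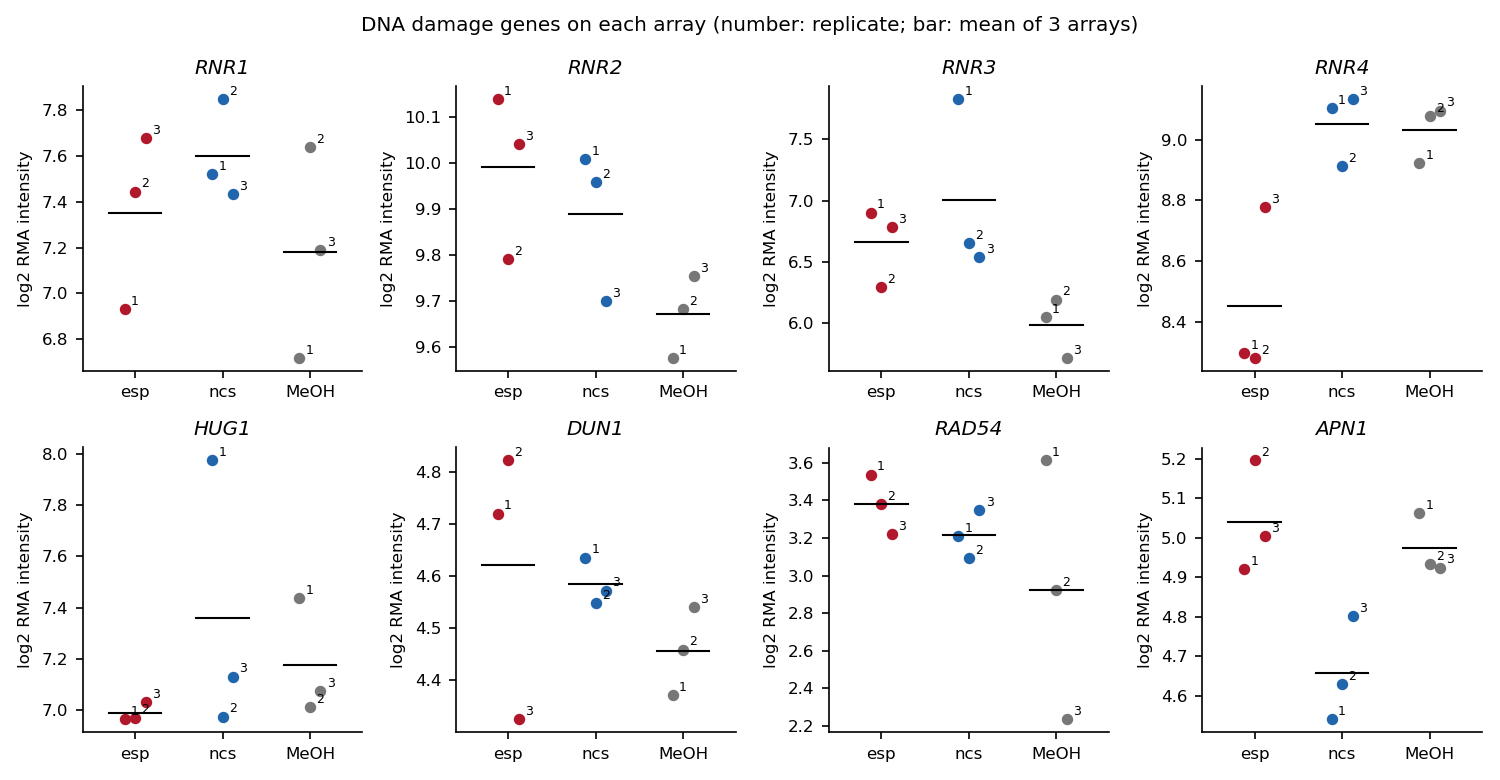
log2 RMA intensity (y axis) of 8 genes of the DNA damage response and of repair on each array of esperamicin A1 (esp), neocarzinostatin (ncs) and methanol vehicle (MeOH), 1 point per array with its replicate number and a bar at the mean of 3 arrays. RNR4 is below neocarzinostatin and vehicle on all 3 esperamicin A1 arrays, and for RNR3 and HUG1 neocarzinostatin replicate 1 stands above the other arrays.

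Among the ribonucleotide reductase genes, which make the precursors of DNA synthesis and are the classic targets of the damage checkpoint, the small subunit gene RNR4 separated the compounds. RNR4 had 315, 311 and 439 with esperamicin A1, against 550.5, 482 and 562 with neocarzinostatin and 485, 540.5 and 547 with methanol vehicle. All 3 esperamicin A1 arrays were below all neocarzinostatin and all vehicle arrays, while the neocarzinostatin arrays lay about the vehicle arrays. The log2 difference between the compounds was -0.60 (SE 0.16, 95% interval -0.94 to -0.25, limma adjusted p = 0.569) and it lay between -0.81 and -0.48 over the alternatives. The value of -0.81 is the difference of group medians in the local pooled error test. The partner small subunit gene RNR2 had 1128, 887 and 1054 with esperamicin A1, against 1029.7, 995 and 832 with neocarzinostatin and 764, 822 and 863 with methanol vehicle. For RNR2 the compounds overlapped, with a log2 difference of 0.10 (95% interval -0.20 to 0.40).

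RNR3, the damage-inducible large subunit gene, had 119.7, 78.6 and 110.2 with esperamicin A1, against 227, 101 and 92.9 with neocarzinostatin and 66.2, 73.2 and 52.7 with methanol vehicle. Every array of either compound was above every vehicle array, and the value of neocarzinostatin replicate 1 was more than 1.5-fold above every other array of the 2 compounds. The log2 difference of -0.35 (95% interval -0.95 to 0.25) became 0.06 without neocarzinostatin replicate 1. HUG1, a small inhibitor of ribonucleotide reductase and target of the same checkpoint, had 125, 125 and 131 with esperamicin A1, against 251, 126 and 140.2 with neocarzinostatin and 173, 129 and 135 with methanol vehicle, so that neocarzinostatin replicate 1 again stood alone. RNR1, the large subunit gene of unperturbed cells, had 122, 174 and 205 with esperamicin A1 and 184, 231 and 173 with neocarzinostatin, and its 95% interval of -1.27 to 0.77 was too wide to place it.

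Each controller of ribonucleotide reductase overlapped between the compounds. The log2 difference was -0.21 for SML1 and -0.25 for DIF1, which hold the enzyme inactive or its small subunit in the nucleus, 0.15 for RFX1 (also called CRT1), the repressor of the reductase genes, 0.12 for CRT10 and -0.13 for WTM1, which anchors the small subunit in the nucleus. Of the 11 genes of ribonucleotide reductase and its control, 1 had an unadjusted p under 0.05, which was RNR4, beside 7.32% of all genes. The median difference of -0.21 over the 11 became 0.05 without neocarzinostatin replicate 1. Of the 7 genes of the DNA damage signature that the study takes up, 6 were measured here. Besides RNR4 and RNR2, these were DUN1, the checkpoint kinase, with a log2 difference of 0.04 (95% interval -0.26 to 0.34), RAD54, the translocase of homologous recombination (0.16, -0.37 to 0.70), FMP52 (0.04, -0.41 to 0.49) and ALG14 (0.03, -0.45 to 0.50). All 4 overlapped between the compounds, and the intervals lay within a 2-fold change.

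Of the repair and checkpoint lists, 3 of 18 genes of base excision and strand-break end repair (16.7%), 4 of 17 of nucleotide excision repair (23.5%), 2 of 12 of post-replication repair (16.7%), 2 of 15 checkpoint sensors and kinases (13.3%) and 0 of 19 of homologous recombination separated the compounds, beside 15% of all genes. These lists were dim on average. In the same order, their mean log2 intensities on the 6 arrays were 3.63 to 3.84, 3.31 to 3.42, 3.78 to 4.03, 2.81 to 3.02 and 3.07 to 3.18. For all genes the mean was 4.91 to 4.98. Little can therefore be read from members of these lists that did not separate. Of the 18 genes of base excision and strand-break end repair, 1 had an unadjusted p under 0.05 in the higher and 0 in the lower direction, with a median of 0.02. Over all genes 7.32% had such a p in either direction. The 1 gene of this list was APN1, the main endonuclease for abasic sites and for blocked 3' ends. APN1 had 30.3, 36.6 and 32.1 with esperamicin A1, against 23.3, 24.7 and 27.9 with neocarzinostatin and 33.4, 30.5 and 30.4 with methanol vehicle. The neocarzinostatin arrays were the 3 lowest of all 18 for APN1, and the log2 difference was 0.38 (SE 0.16, limma adjusted p = 0.626). HNT3, the yeast aprataxin that removes adenylates from aborted ligations, had 12.95, 14.8 and 11.3 with esperamicin A1 and 9.27, 11.2 and 9.66 with neocarzinostatin, also without overlap, at a log2 difference of 0.37. Of the 19 genes of homologous recombination, the pathway that repairs most double-strand breaks in yeast, 0 had an unadjusted p under 0.05, and their differences lay between -0.27 for RAD52 and 0.21. Of 12 post-replication repair genes 1 had such a p, RAD5, a ubiquitin ligase and helicase, with 9.03, 9.86 and 9.09 for esperamicin A1 and 10.6, 14.1 and 15.1 for neocarzinostatin. Of 15 checkpoint sensors and kinases 1 did, the clamp subunit RAD17 at -0.35, with overlap between the groups, and of 17 nucleotide excision repair genes 0 did.

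In the replication and cell cycle lists, 2 of 28 DNA replication genes had an unadjusted p under 0.05, both higher with esperamicin A1, beside 7.32% of all genes in either direction. MCM3 of the replicative helicase had 25.2, 31.1 and 34.2 with esperamicin A1, against 24.9, 18.1 and 17.2 with neocarzinostatin, and PSF1 of the GINS complex had 12.7, 14.7 and 16.4 with esperamicin A1, against 11.6, 8.47 and 9.82 with neocarzinostatin. Neither overlapped, although neocarzinostatin replicate 1 of MCM3 was only just under esperamicin A1 replicate 1. WHI5, the repressor of G1/S transcription, was dim at 5.72, 6.67 and 5.99 with esperamicin A1, against 9.25, 8.76 and 8.13 with neocarzinostatin, and was the 1 of 20 G1/S genes with such a p. The G1 cyclin CLN3 had 41.1, 67.7 and 48.8 with esperamicin A1, against 56.2, 108 and 115 with neocarzinostatin, with overlap, and its log2 difference of -0.79 was -0.085 with the actin covariate. Of the 20 G1/S genes 16 had a difference below 0, beside 49.2% of all genes, and their median of -0.11 was -0.22 without neocarzinostatin replicate 1 and -0.04 with the actin covariate. BUD4, needed for axial budding, and DBF20, a kinase of mitotic exit, were the 2 of 23 G2/M genes under that p, both in the lower direction (-1.07 and -0.48), and both were among the dim genes. The other probe sets of BUD4 gave -1.03 to -0.22, and the one at -0.22 was slightly brighter on the 6 arrays than that used. With the actin covariate BUD4 was at -1.64. The other probe set of DBF20 gave -0.16. The 4 histone genes measured through a probe set of their own had differences between -0.36 and -0.11 and overlapped.

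In the higher direction no gene reached a 2-fold difference without overlap, whereas 8 did in the lower direction. Of the 12 largest in the higher direction the first was YPR1, an aldo-keto reductase, at 160.4, 146 and 189 with esperamicin A1, against 119, 75.7 and 81.4 with neocarzinostatin and 104, 132 and 153 with methanol vehicle, a log2 difference of 0.87 (SE 0.28, limma adjusted p = 0.578). RPT4, an ATPase of the proteasome cap, had 57.6, 113 and 52.7 with esperamicin A1, against 41.8, 37.8 and 37.6 with neocarzinostatin and 69.04, 46.96 and 63.7 with methanol vehicle. The neocarzinostatin arrays were the 3 lowest of the 18 for RPT4, esperamicin A1 replicate 2 stood above the others, and the log2 difference of 0.84 was 0.50 without that array. DAD1, a subunit of the ring complex that couples kinetochores to microtubules, had 62.7, 73.5 and 82.2 with esperamicin A1 and 44.9, 43.2 and 40.8 with neocarzinostatin, and its neocarzinostatin arrays were also the 3 lowest of the 18. GPI17 of the GPI transamidase had 46.3, 49.9 and 52.01 with esperamicin A1, against 34.2, 27.9 and 27.2 with neocarzinostatin and 52.5, 50.7 and 48.5 with methanol vehicle. GPI17 had the smallest unadjusted p of the 12, 0.000977, and its esperamicin A1 values lay about those of the vehicle, with neocarzinostatin below both. Its neighbour on the chromosome, PPM1, a methyltransferase for protein phosphatase 2A, had a like log2 difference of 0.75, beside 0.74 for GPI17.

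The 12 largest differences in the higher direction also held EFG1 and NOP6, which take part in the making of the small ribosomal subunit, and NOP16, which takes part in that of the large one. They had log2 differences of 0.80, 0.76 and 0.70, each without overlap, though the EFG1 values differed among its probe sets, the 3 others giving 0.12 to 0.44. NOP16 had 61.2, 104 and 82.9 with esperamicin A1 and 45.3, 44.6 and 60.6 with neocarzinostatin, and these lay close at the edge. Over all 58 ribosome biogenesis genes the median difference was 0.10, and 41 had a difference above 0, where 49.2% of all genes had one below 0. Of the 58, 3 had an unadjusted p under 0.05 in the higher and 0 in the lower direction, beside 3.32% and 4% of all genes. The median of the list was -0.10 without neocarzinostatin replicate 1. The others of the 12, RRT14, COQ21, PFU1 and the transfer RNA locus YNCJ0015W, had log2 differences between 0.71 and 0.75. With the actin covariate some of the 12 fell and others rose. Their log2 differences in that fit lay between 0.46 for COQ21 and 1.02 for YPR1, with DAD1 at 0.56 and NOP6 at 0.93.

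The proteasome list had the most members under an unadjusted p of 0.05 in the higher direction, 4 of 33, beside 1 in the lower, where the shares over all genes were 3.32% and 4%. Besides RPT4 these included PRE9, a core subunit, which had 141, 128 and 110.2 with esperamicin A1, against 93.1, 78.1 and 78.1 with neocarzinostatin and 177, 111 and 112 with methanol vehicle. For PRE9 the groups did not overlap and the log2 difference was 0.60 (SE 0.20), or 0.38 with the actin covariate. The median of the list was 0.12, 23 of 33 had a difference above 0, and the median lay between 0.07 and 0.17 over the alternatives.

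**Figure D5:**
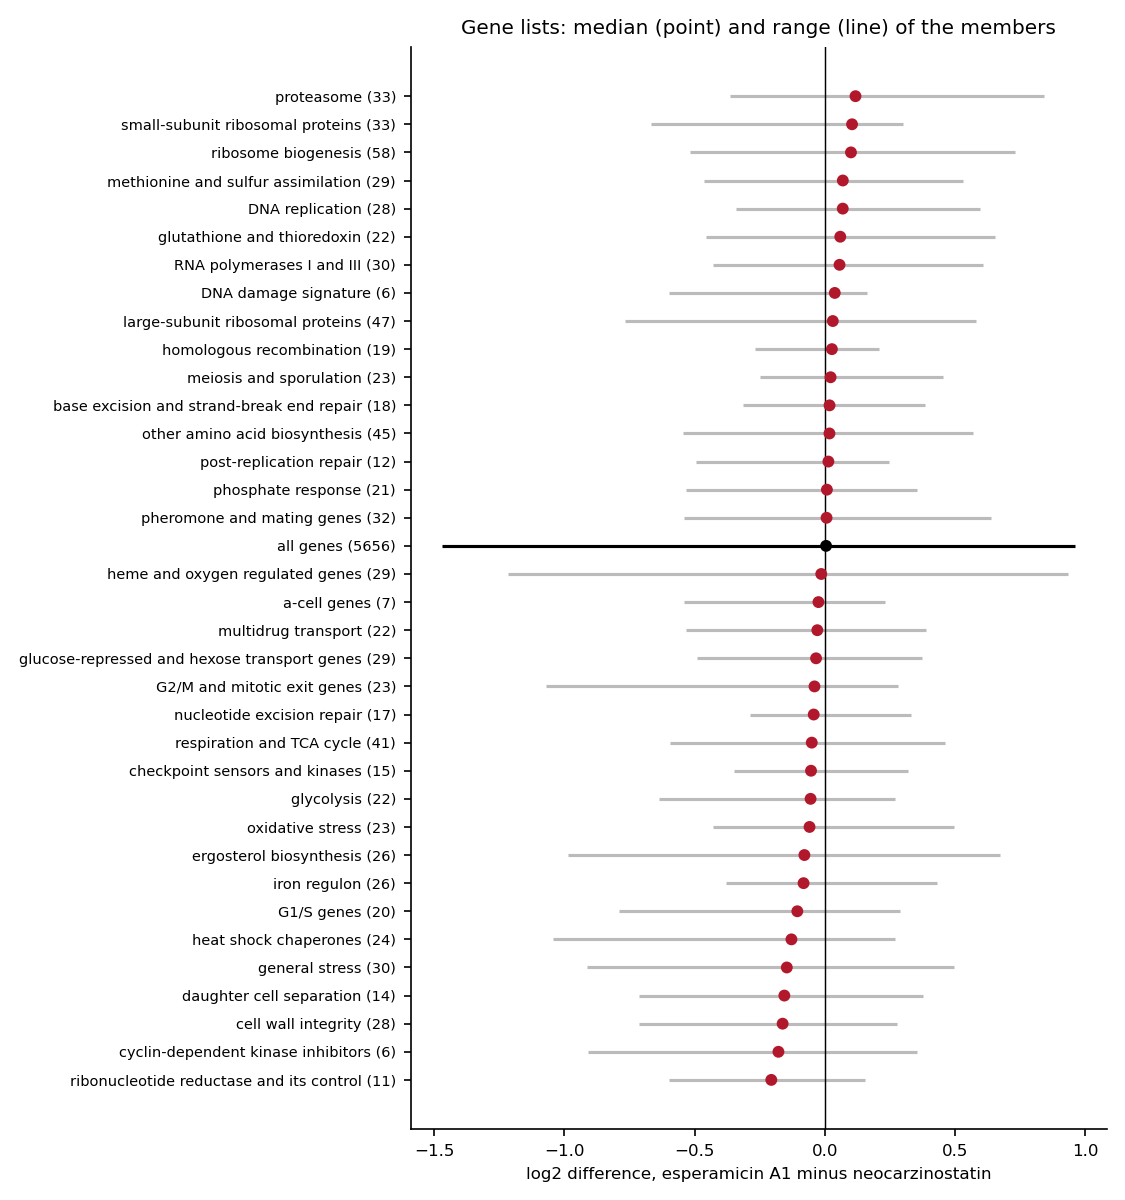
Median (point) and range (line) of the log2 difference of esperamicin A1 minus neocarzinostatin (x axis) for each gene list with 6 or more measured genes (y axis, number measured in parentheses) and for all genes (black). The medians lie between -0.21 and 0.12, beside 0.01 over all genes.

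Thiols activate the enediynes, and the genes of the thiol systems were listed for that reason. Of 22 glutathione and thioredoxin genes, 2 had an unadjusted p under 0.05, both in the higher direction, beside 7.32% of all genes in either direction. TRX3, the mitochondrial thioredoxin, had 58.9, 44.6 and 37.2 with esperamicin A1, against 32.8, 25.2 and 30.4 with neocarzinostatin and 29.03, 35.5 and 38.7 with methanol vehicle, and GRX5, a mitochondrial glutaredoxin of iron-sulfur assembly, had 153, 142 and 146 with esperamicin A1, against 124, 111 and 118 with neocarzinostatin. Neither overlapped, and their log2 differences were 0.65 and 0.33. Of 23 oxidative stress genes 0 had such a p, with a median of -0.06, and of 22 multidrug transport genes 2 did, both lower, the polyamine exporter TPO4 at -0.53 and the dim regulator YRM1 at -0.36.

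Of 47 genes for proteins of the large ribosomal subunit, 3 had an unadjusted p under 0.05 in the higher and 3 in the lower direction, beside 3.32% and 4% of all genes. The median of these 47 was 0.03, and of 33 small-subunit genes 0 had such a p. RPL27B had 974, 1259.7 and 1229 with esperamicin A1, against 709, 779.9 and 816 with neocarzinostatin, the neocarzinostatin arrays being the 3 lowest of the 18, at a log2 difference of 0.58. RPL7B had 165, 130.2 and 147 with esperamicin A1, against 207, 303 and 247 with neocarzinostatin, at -0.77, or -0.28 with the actin covariate, and its near-identical copy RPL7A gave -0.70, but probes for such copies cannot be told apart with certainty. RPL37B, called by the local pooled error test alone, had 2224, 893 and 956 with esperamicin A1, against 1509, 1924 and 2542 with neocarzinostatin, and its groups overlapped because esperamicin A1 replicate 1 lay among the neocarzinostatin values.

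Of the cell wall and metabolic lists, 28 cell wall integrity genes had a median of -0.16 with 20 below 0, beside 49.2% of all genes. Beside 7.32% of all genes in either direction, 2 of the 28 were under an unadjusted p of 0.05, both in the lower direction. These were the wall sensors MTL1, at 5.16, 6.34 and 7.69 with esperamicin A1 and 9.82, 9.21 and 8.90 with neocarzinostatin, and SLG1, at 24.5, 31.7 and 30.3 with esperamicin A1 and 35.7, 43.00 and 42.3 with neocarzinostatin. Neither overlapped. With the actin covariate the list median was 0.08, and the log2 difference of SLG1 was -0.11 where it was -0.49 in the main fit. YHB1, the flavohemoglobin that removes nitric oxide, was called by the local pooled error test and had 423, 172 and 118 with esperamicin A1, against 551, 475 and 411 with neocarzinostatin, with overlap through esperamicin A1 replicate 1. The probe set used for YHB1 gave a log2 difference of -1.21, or -0.60 with the actin covariate. Of its 3 other probe sets the brightest, at about the same intensity, gave 0.21, the next -1.64 and the dimmest -0.18. SRL1, a cell wall mannoprotein first found as a suppressor of rad53 lethality, had 991, 1368 and 1674 with esperamicin A1, against 1843, 2571 and 2506 with neocarzinostatin and 332, 2432 and 2621 with methanol vehicle, without overlap between the compounds. Its log2 difference was -0.80, but 0.23 with the actin covariate, and its other probe sets gave -0.21 and 0.26. Of 29 heme and oxygen regulated genes, 2 had an unadjusted p under 0.05 in the higher direction and 3 in the lower, beside 3.32% and 4% of all genes. Among the 29 were the heme synthesis gene HEM3 at -0.44 and the heme activator HAP1 at 0.93, both under that p. HAP1 had 88.6, 61.3 and 59.3 with esperamicin A1 and 64.8, 24.3 and 29.4 with neocarzinostatin. The groups overlapped for HAP1, its other probe sets gave -0.09 and 0.62, and its log2 difference lay between 0.65 and 1.36 on leaving out 1 of the 6 arrays.

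Of 45 amino acid biosynthesis genes outside methionine synthesis, 3 had an unadjusted p under 0.05, all higher, and the median of the list was 0.02. Over all genes 3.32% had such a p in the higher and 7.32% in either direction. ARO4, which catalyses the first step of aromatic amino acid synthesis, had 547, 509.7 and 670.2 with esperamicin A1, against 410.3, 403 and 396 with neocarzinostatin and 486, 623 and 589 with methanol vehicle, and its neighbour HIS7 of histidine synthesis had 81.8, 76.3 and 90.3 with esperamicin A1, against 48.8, 58.7 and 60.4 with neocarzinostatin. Neither overlapped, the neocarzinostatin arrays of ARO4 were the 3 lowest of the 18, and the log2 differences were 0.50 and 0.57. In the remaining lists of 20 or more genes, at most 3 genes each had an unadjusted p under 0.05 in 1 direction, and their medians lay between -0.08 and 0.07. These covered respiration, glycolysis, glucose-repressed genes, ergosterol synthesis, the iron and phosphate responses, methionine synthesis, RNA polymerases I and III, mating and meiosis.

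For some genes a compound stood at the edge of the whole series. The neocarzinostatin arrays were the 3 highest of 18 for 25 genes and the 3 lowest for 17, and the esperamicin A1 arrays were the 3 highest for 11 genes and the 3 lowest for 16. Of the genes named above, neocarzinostatin was at the upper edge for CIP1, there just above calicheamicin replicate 1, and for DBF20. It was at the lower edge for RPT4, DAD1, APN1, RPL27B and ARO4, while esperamicin A1 was at the lower edge for SPA2, SBH1 and HEM3. These counts are descriptions and were not tested.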

How the data were processed

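The authors made the deposited values with RMA, which corrects background, applies quantile normalization and summarizes each probe set; the intensities they deposited are linear, and log2 was taken here without another scaling. Absent/Present calls, used in the study, were not used here. Of 9335 probe sets, 60 are controls, 6504 match 1 gene symbol, 328 several and 2443 none in the platform annotation; each of 5656 genes is represented by its brightest probe set on average over 18 arrays. The number of arrays limits the precision.

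Esperamicin A1 minus neocarzinostatin was 1 contrast in a limma model (version 3.58.1, R 4.3.3; lmFit, contrasts.fit, eBayes) of the 6 groups and 18 arrays, with 12 residual degrees of freedom and two-sided p-values. A call needed a 1.5-fold difference together with a p of at most 0.10 after Benjamini-Hochberg adjustment over all genes, the thresholds of the study's methods. Replicates are separate samples in the labels, and p-values measure only the spread between them. The scripts were tested on simulated data.

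The members and gene lists were chosen with earlier results of these data known, and no test over a list was made. Named are the genes called by limma on 18 or 6 arrays or by the local pooled error test, the 12 largest differences of each direction (unadjusted p under 0.05, no overlap, mean intensity at or above the median gene's), in each list the 2 genes of smallest p, and the damage signature and ribonucleotide reductase genes. CPA1, RPL7A, PUB1 and, in the closing section, GEA2, HSP30, YBR238C and YEL068C were named after their values were seen. Of the 7 signature genes, 1 is not reported here. Promoter motifs and coordinates were not analysed here. Alternatives covered the arrays in the fit, normalization, dim genes, variance model, test, thresholds, probe sets, a covariate for the actin difference, a block for the replicate number and leaving out each array; leaving out methanol vehicle replicate 1, and arrays within the 6-array fit, were added after seeing the data.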

Additional observations from a re-analysis of the deposited data

How the results depend on the processing

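Of 5656 genes, 0 were called by limma on the 18 arrays, 414 having an unadjusted p under 0.05. The count of calls was 3 on the 6 arrays alone, 5 on the 9 enediyne arrays, 6 by the local pooled error test, 1 with the actin covariate (SPA2) and 3 without methanol vehicle replicate 1 (YOR302W, SPA2 and PUB1). Leaving out 1 of the 6 arrays gave 0 to 1 calls on the remaining arrays of all groups and 0 to 6 in the fit of the compounds alone, the most without neocarzinostatin replicate 1 and 0 without neocarzinostatin replicate 2 or 3. With the replicate number as a block the count was 0 on 18 arrays and 5 on the 6 arrays alone (636 with an unadjusted p under 0.05). Same-numbered arrays had residual correlations of 0.39, 0.29 and -0.02. Esperamicin A1 replicates 1 and 2 each correlated best with the neocarzinostatin array of their own number. Esperamicin A1 replicate 3 had 0.039, -0.03 and -0.02 with neocarzinostatin replicates 1, 2 and 3, which favour no partner. Whether the number pairs the arrays was not tested, and the main fit had no block. All other settings gave 0 calls. Over 11 settings with calls, 15 genes were called, 14 of them lower and HAP1 higher, YOR302W in 9 settings and COS10 and SPA2 in 6 each. The count under an unadjusted p of 0.05 was 661 with array weights, 164 by the local pooled error test, 872 over all probe sets, 291 to 450 on leaving out 1 of the 6 arrays, 589 without methanol vehicle replicate 1, 619 on the 9 enediyne arrays and 495 on the 6 arrays alone. The arrays did not overlap for 1587 of all probe sets, against 849 of 5656 genes, and for 1182 to 1598 genes with 1 of the 6 arrays left out, where fewer arrays have to separate. All probe sets are the 9335 less 60 controls, so the 1587 and the 872 are out of more features than the counts of genes.

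The 110 named genes were each followed under the alternatives, and 29 of these values of a gene under a setting had the other sign, while 2134 kept sign and call. A gene could be counted under several settings. Among them was SRL1, which the local pooled error test called. With the actin covariate, the log2 difference was 0.11 for HTB2, 0.24 for HTB1, 0.064 for YAR009C, -0.21 for URA3, 0.23 for SRL1, -0.23 for RAD54, -0.22 for ALG14, 0.0088 for RNR1, 0.25 for SML1, -0.093 for CRT10 and 0.11 for WTM1. By the local pooled error test, where it is a difference of group medians and not of means, it was -0.077 for AGA2, 0.27 for TRP1 and 0.13 for RNR3. On leaving out 1 array, it ranged from -0.43 to 0.062 for HTB1, -0.036 to 0.37 for AGA2, -0.075 to 0.28 for URA3, -0.30 to 0.16 for TRP1, -0.063 to 0.19 for DUN1, -0.11 to 0.15 for ALG14, -0.58 to 0.065 for RNR3, -0.039 to 0.32 for RFX1, -0.38 to 0.086 for WTM1 and -0.11 to 0.16 for FMP52. The cause of the changes with the covariate or on leaving out 1 array was not tested. Over the lists, 745 medians under the alternatives moved by less than the spread and 35 by more.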

Other observations

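A few genes outside the named set were called under 1 or 2 settings and were picked out after their values were seen. PUB1, which encodes an RNA-binding protein, had intensities of 79.1, 95.9 and 76.02 with esperamicin A1, against 147, 162 and 180.3 with neocarzinostatin and 17.9, 167 and 158 with methanol vehicle, so that methanol vehicle replicate 1 was again the lowest. GEA2, a nucleotide exchange factor for Arf proteins of the Golgi, had 6.496, 5.33 and 5.16 with esperamicin A1, against 9.44, 15.2 and 11.8 with neocarzinostatin. These are dim values without overlap, and the limma adjusted p on 18 arrays was 0.72 for PUB1 and 0.569 for GEA2. HSP30, a membrane protein of stressed cells, varied by culture in both groups, at 61.98, 15.3 and 38.4 with esperamicin A1, against 135, 30.2 and 78.2 with neocarzinostatin, and was called only with the replicate number as a block. YBR238C and YEL068C were each called once, on leaving out 1 array.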
